A study of Gelatoporia subvermispora and Trametes versicolor with 24 samples.

Results

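In Gelatoporia subvermispora, 179 genes had lower transcript levels when antioxidants were added to shaken cultures. In standing cultures their mean levels with and without antioxidants differed by less than a set limit, which does not make them equal. The 179 genes were chosen from the 12313 genes counted for this fungus, out of 26883 genes counted for both species of the series. The choice used measured values: the mean log2(CPM+1) of each group, where CPM is a gene's reads scaled by the gene-read total of its library. A gene was taken if its mean in agitated cultures with antioxidants was lower by at least 1 than in agitated cultures without them, if the highest of the 3 libraries with antioxidants lay below the lowest of the 3 without, and if the 2 static group means differed by less than 0.7. Genes that static culture raised or lowered by 2 or more in both antioxidant states were dropped. The rule uses all 4 group means, so the differences between groups given here describe the choice and are not tested. Gene numbers are running numbers, and the tables used here pair them with no name or product, so the genes are described by their levels and not by function.

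White-rot fungi such as G. subvermispora decay lignin, the aromatic polymer of wood, with secreted oxidative enzymes and with oxidants made outside the cell, and they take up and metabolise small aromatic acids. Ascorbic acid is a water-soluble and α-tocopherol a fat-soluble scavenger of radicals. Shaken fungal cultures are mixed and aerated and usually grow as pellets, while standing cultures form mats with access to air mainly from above.

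All cultures were of strain FP-105752 and grew in 250 mL flasks holding 25 mL of minimal Czapek-Dox medium, with cellobiose (15 mM) as sugar, at 28 °C. Flasks were shaken at 220 rpm or left standing. After 10 days 4-hydroxybenzoate, an aromatic acid, was given to every flask at about 2 mM, so the control groups carry it too. The antioxidant groups had been given 5 mM ascorbic acid together with α-tocopherol (1 mM) 30 min earlier, and mycelium was collected 24 h after the aromatic acid, on day 11. The 4 groups of 3 libraries are agitated without antioxidants, agitated with antioxidants, static without antioxidants and static with antioxidants. Whether the 3 replicates were separate flasks is not stated, so the spread between them may be technical. In bulk mycelium, fewer hyphae expressing a gene and less RNA per hypha cannot be told apart.

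The 12 libraries held 7875324 to 26653884 gene reads, and the shallowest was static replicate 1 without antioxidants. The share of reads set aside for low mapping quality was 33.7 to 46.9% in agitated libraries without antioxidants and 37.6 to 49.1% in those with them. The share not aligned was 0.644 to 1.11% and 1.02 to 1.39%, respectively. The part of these shares in the differences below was not tested. Agitated antioxidant replicate 3 stood apart: across the 10529 genes with enough reads to test, it correlated with replicates 1 and 2 at 0.979 and 0.976, against 0.997 between those 2.

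Few genes of any kind reached the static limit: 98.5% of all tested genes differed by less than 0.7 between the static means, so this clause removed little. Of 208 genes with a mean difference of -1 or lower, 205 had no overlap between the agitated libraries, against 21.4% of all tested genes whose agitated antioxidant libraries lay below those without, whatever the size of the difference. In 191 of the 205, or 93.2%, the static means differed by less than 0.7, in 9 the static mean was lower with antioxidants by at least 0.7, and in 5 it was higher by at least 0.7. The clause on static culture then dropped 10 genes that stood far higher and 2 that stood far lower in static culture, which left 179, or 87.3% of the 205. All 179 passed the filter on low counts. Just inside the limit of 1 were gene3988 at -1.0003 and gene11764 at -1.0005, and just outside were gene1606 at -0.9985 and gene5932 at -0.9966. At the static limit gene5708 at 0.6964 and gene5318 at 0.6915 lay inside, and gene153 at 0.7105 and gene11417 at 0.7258 lay outside.

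**Figure D1:**
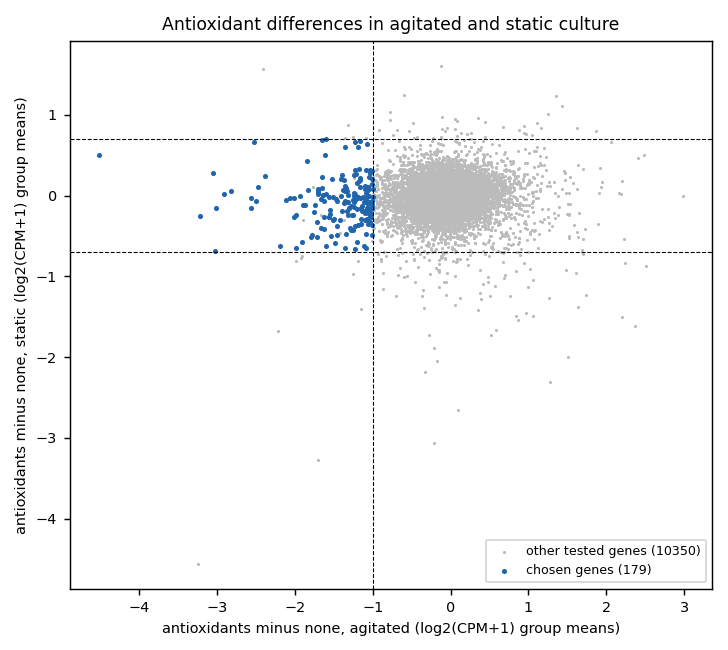
Each point is 1 tested gene. The x axis is its antioxidant difference in agitated culture and the y axis that in static culture, both as differences of group means of log2(CPM+1), n = 3 libraries per group. Dashed lines mark the limits of the rule at -1 and at ±0.7. The 179 chosen genes (blue) spread from -1.0003 to -4.52 along x and lie within ±0.7 along y, as the rule requires.

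The 179 genes together made up 3.67% ± 0.196 (SD, n = 3) of all gene reads in the agitated group without antioxidants and 1.46% ± 0.0651 with them. Static cultures held 2.45% ± 0.0997 without and 2.35% ± 0.131 with antioxidants, between the agitated groups. The genes ranged widely in level. The group means in agitated culture without antioxidants ran from 2.64 to 3413 CPM with a median of 80.7 CPM, and 82 genes had at least 100 CPM. With antioxidants the median was 28.3 CPM, and 32 genes reached 100 CPM. In static culture the medians were 52.9 CPM without and 47.9 CPM with antioxidants.

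The median antioxidant difference of the 179 genes in agitated culture was -1.27 on the log2(CPM+1) scale, against -0.04 over the 10529 tested genes. It was -1.5 or lower for 59 genes, -2 or lower for 18 and -3 or lower for 5. In static culture the median was -0.06, against -0.01 over all tested genes. With antioxidants 114 of the 179 were lower and 65 higher, against 5450 lower and 5079 higher of the 10529 tested genes. By the rule all 179 lay within the limit of 0.7. Static culture without antioxidants stood lower than agitated culture by a median of 0.42, or -0.42 as a difference, while the median tested gene stood at 0.16 on the same scale. With antioxidants in both, static culture stood higher by a median of 0.79, against 0.19 for all tested genes. These 2 comparisons share their agitated libraries with the rule, and the shift of all genes depends on scaling: with CPM per TMM-scaled total the 2 medians were -0.59 and 0.58.

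With edgeR's quasi-likelihood test and Benjamini-Hochberg adjustment over all tested genes, at an adjusted p under 0.05, antioxidants lowered 168 of the 179 genes in agitated culture, where 10.6% of tested genes were called lower and 22.3% in either direction. In static culture 1 of the 179 was called, gene6379, which was lower, where 0.456% of tested genes were called, 0.361% lower and 0.095% higher. The static count was 4 with the replicate number as a block within the static libraries. The antioxidant effect was called more positive in static than in agitated culture for 120 of the 179, against 4.28% of tested genes, while 4.77% were called less positive and 9.05% either way. The rule used all of these contrasts, so nothing is read from the counts. gene6379, named because it was the single one, stood at 494, 594 and 549.6 CPM in static cultures without and at 341, 360.4 and 329 CPM with antioxidants, just within the limit at -0.66. Left-out libraries moved the static count. It was 9 without agitated antioxidant replicate 3, 7 without replicate 1 of the static group lacking antioxidants, 2 without static antioxidant replicate 3, and 0 without replicate 2 or 3 of static cultures without antioxidants or replicate 1 or 2 of those with them.

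**Figure D2:**
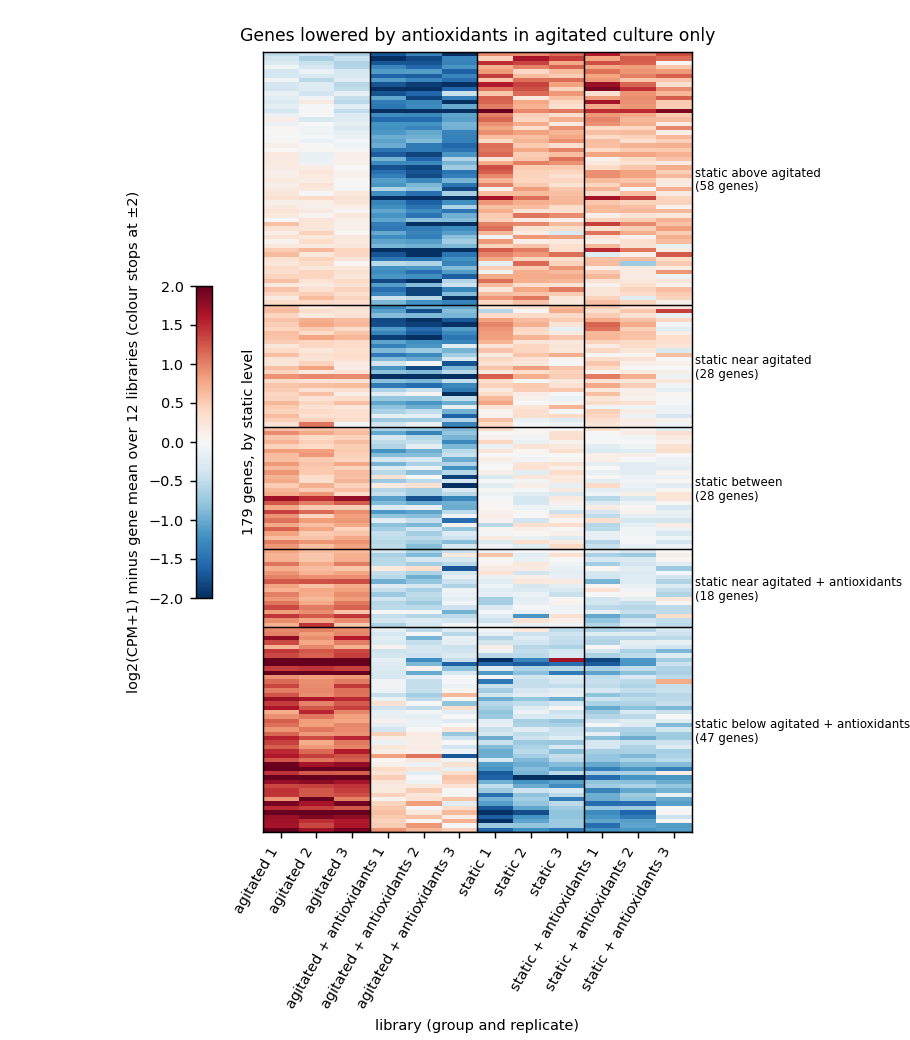
Rows are the 179 genes and columns the 12 libraries. Colour is log2(CPM+1) minus the gene's mean over the 12 libraries, and the scale stops at ±2. Rows are ordered by where static culture lies relative to the 2 agitated groups. The upper blocks, 58 and 28 genes, have their lowest group mean in agitated cultures with antioxidants. In the block of 58, the agitated group without antioxidants lies above the gene's mean for 37 genes and both static groups do for all 58. The lowest block, 47 genes, is high in the 3 agitated libraries without antioxidants.

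The rule bounds the static level only by dropping the far higher and far lower genes, and the 179 genes differed in where it lay within those bounds. The bounds are uneven: without antioxidants, static minus agitated means of the 179 ran from -5.17 to 1.66. The clause dropped 10 far higher and 2 far lower genes, so the class counts follow in part from the rule. Each gene was placed by the mean of its 2 static group means against its own 2 agitated means. Static culture lay above agitated culture without antioxidants for 58 genes and near it, in the upper part of the interval between the agitated means, for 28. It lay in the middle part for 28 and in the lower part, near agitated culture with antioxidants, for 18, the 3 parts being of equal width. For 47 genes it lay below agitated culture with antioxidants. The genes thus range from ones that were low in agitated antioxidant cultures only to ones that were high in agitated cultures without antioxidants only. With CPM per TMM-scaled total the classes held 46, 35, 16, 27 and 55 genes, so the middle class is the least certain.

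Over all classes, the 6 static libraries lay above all 3 agitated libraries without antioxidants for 33 of the 179 genes, where 35.7% of tested genes did so, and below them for 92, where 17.4% did. They lay above all 3 agitated libraries with antioxidants for 100 genes, against 29.7% of tested genes, and below them for 18, against 11.9%. edgeR called 25 of the 179 higher and 89 lower in static than in agitated culture without antioxidants, where 23.7% and 24.5% of tested genes were called. With antioxidants in both it called 87 higher and 33 lower, where 23.5% and 26.6% were called, or 50.1% either way. The either-way share without antioxidants was 48.3%. These background splits depend on scaling: by library totals alone 3273 tested genes were called higher and 1565 lower without antioxidants, against 2499 and 2584 with TMM, and 3433 and 1374 with antioxidants, against 2471 and 2804. All 4 of these comparisons use agitated libraries that the rule had set high or low.

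**Figure D3:**
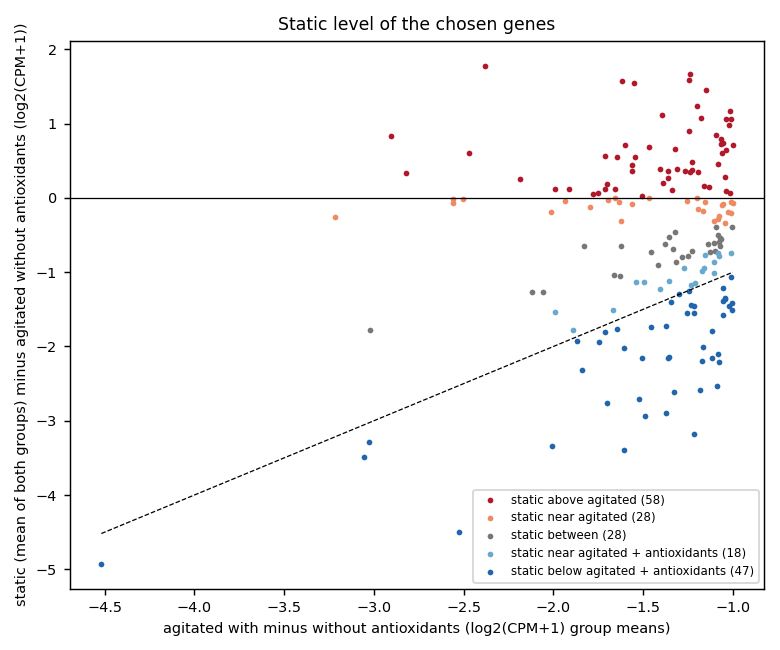
Each point is 1 of the 179 genes. The x axis is the antioxidant difference in agitated culture and the y axis is the mean of the 2 static groups minus agitated culture without antioxidants, both on the log2(CPM+1) scale. The solid line marks the level of agitated culture without antioxidants and the dashed line that of agitated culture with them. Of the 179 genes, 58 lie above the solid line and 47 below the dashed line.

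The 86 genes whose static level lay near or above that of agitated culture without antioxidants had, by the rule and the class, their lowest group mean in agitated antioxidant cultures. All 6 static libraries lay above all 3 agitated antioxidant libraries for 57 of the 58 genes above and 26 of the 28 near, against 29.7% of tested genes. The 58 with static culture above held 0.732% ± 0.0352 (SD, n = 3) of the reads in agitated cultures without antioxidants, 0.277% ± 0.0165 with them, and 1.17% ± 0.133 and 1.14% ± 0.105 in static cultures without and with antioxidants. The 28 with static culture near it held 0.402% ± 0.0224, 0.145% ± 0.0105, 0.404% ± 0.0162 and 0.346% ± 0.0473 in the same order. The agitated antioxidant cultures were thus below the other 3 groups for both sets, which the choice of genes requires.

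gene5500 had the largest difference among these genes. It stood at 252, 265 and 261 CPM in agitated libraries without antioxidants and at 31.6, 23.01 and 27.1 CPM in those with them. In static culture it stood at 309.6, 225 and 190.5 CPM without and 275, 224 and 126 CPM with antioxidants. Only the agitated antioxidant libraries were low, and no static library came near them. Its log2 fold change in edgeR was -3.21 (SE 0.27) with antioxidants in agitated and -0.21 (SE 0.24) in static culture.

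gene7563 followed the same course, with 207, 232 and 197 CPM in agitated libraries without antioxidants, 31.4, 26.5 and 29.4 CPM with them, and 161 to 410.1 CPM over the 6 static libraries (edgeR log2 fold change -2.82, SE 0.30, in agitated and 0.11, SE 0.28, in static culture). gene10670 stood at 64.6, 69.2 and 63.5 CPM without and 9.03, 5.10 and 10.5 CPM with antioxidants in agitated culture, and at 72.3 to 171 CPM in static culture. For both genes all 6 static libraries lay above the agitated antioxidant libraries.

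gene11495 and gene8167 varied little over the 9 libraries of the other 3 groups. gene11495 stood at 149, 164 and 155 CPM in agitated libraries without antioxidants and at 28.0, 21.95 and 30.5 CPM with them, against 178, 154 and 143 CPM in static libraries without and 168, 151 and 135 CPM with antioxidants (edgeR log2 fold change -2.50, SE 0.12, in agitated and -0.06, SE 0.11, in static culture). gene8167 stood at 106, 123 and 113 CPM and at 18.4, 13.5 and 25.4 CPM in the agitated groups and at 90.8 to 126 CPM in the static ones. In both genes the agitated antioxidant libraries stood alone.

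gene7559 was at 50.6 to 61.6 CPM without and 7.55 to 9.66 CPM with them in agitated culture, and at 34.3 to 80.3 CPM in static culture. gene2472 went from 145 to 201 CPM without to 15.7 to 50.7 CPM with antioxidants, and replicate 3 was its lowest agitated antioxidant library. In static culture it stood at 202 to 352 CPM. gene6316, among the 8 of the 179 genes with the highest CPM, stood at 865, 1013 and 638 CPM in agitated libraries without antioxidants and at 257, 165 and 311 CPM with them, and its static libraries, at 573 to 1027 CPM, overlapped the former and not the latter.

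**Figure D4:**
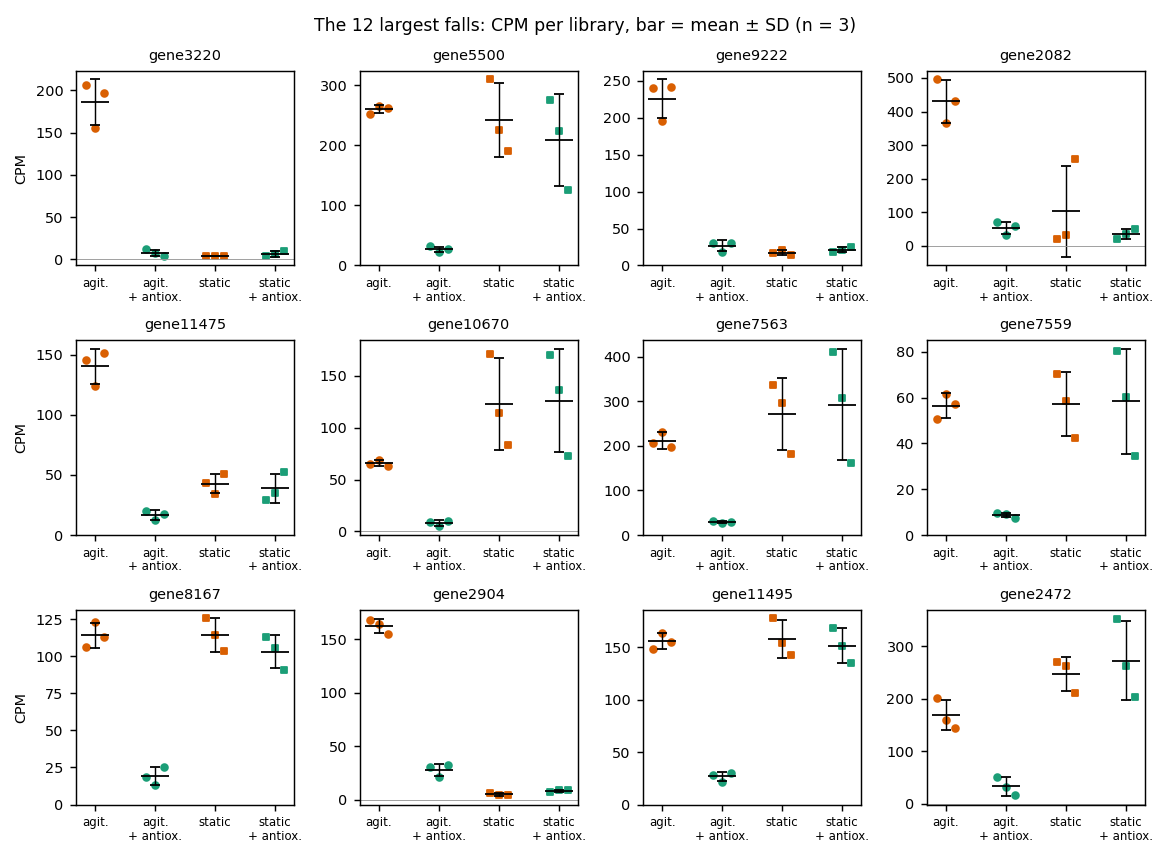
CPM in each of the 12 libraries for the 12 genes with the largest antioxidant differences in agitated culture among those with at least 10 CPM in agitated culture without antioxidants. Points are libraries, circles agitated and squares static, and horizontal bars are the mean ± SD (n = 3). gene5500, gene7563, gene10670, gene7559, gene8167, gene11495 and gene2472 are low in the agitated antioxidant group alone, and gene3220, gene9222, gene2904 and, except for 1 static library, gene2082 are high in the agitated group without antioxidants alone.

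The 28 genes with an intermediate static level held 0.417% ± 0.0223 (SD, n = 3) of the reads in agitated cultures without antioxidants and 0.172% ± 0.0287 with them, and 0.279% ± 0.0199 and 0.262% ± 0.0050 in static cultures. gene11475 had the largest difference among them, at 146, 124 and 152 CPM without and 20.3, 12.5 and 17.3 CPM with antioxidants in agitated culture. Its 6 static libraries, at 29.5 to 52.7 CPM, lay between the agitated groups and touched neither (edgeR log2 fold change -3.03, SE 0.27, in agitated and -0.13, SE 0.25, in static culture). gene7669 did the same, with 68.7 to 79.9 CPM and 16.03 to 17.5 CPM in the agitated groups and 25.9 to 35.5 CPM in the static ones.

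gene7283 and gene7814 were among the 8 genes with the highest CPM and had smaller differences. gene7283 stood at 1323, 1139 and 1255 CPM without and 574, 587 and 332 CPM with antioxidants, and gene7814 at 1069.8, 1019.6 and 954 CPM without and 549, 564 and 353 CPM with them. In both genes replicate 3 was the lowest of the antioxidant libraries. Their static libraries, at 731 to 1095 CPM and 649 to 786 CPM, lay below the agitated libraries without antioxidants and above those with them.

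The 65 genes with a static level near or below that of agitated antioxidant cultures were high in agitated cultures without antioxidants. The 47 with static culture below held 1.92% ± 0.138 (SD, n = 3) of gene reads there, 0.786% ± 0.0488 in agitated cultures with antioxidants, and 0.505% ± 0.0700 and 0.516% ± 0.0537 in static cultures without and with them. All 6 static libraries lay below all 3 agitated libraries without antioxidants for each of the 47 genes, against 17.4% of tested genes. They lay below all 3 with antioxidants for 18, against 11.9%. The class places the static mean below agitated cultures with antioxidants, so these counts follow largely from the choice.

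gene3220 had the largest antioxidant difference of all 179 genes. It stood at 206, 156 and 197 CPM in agitated libraries without antioxidants and at 11.9, 7.30 and 3.95 CPM with them. Its static libraries stood at 4.19, 3.85 and 4.42 CPM without and 3.86, 5.91 and 10.5 CPM with antioxidants. It was high in the 3 agitated libraries without antioxidants and low in the other 9, whose ranges overlapped. The edgeR log2 fold change was -4.51 (SE 0.43) in agitated and 0.67 (SE 0.46) in static culture.

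gene9222 and gene2904 had the same form. gene9222 stood at 240.2, 195 and 241 CPM without and 31.0, 18.6 and 30.7 CPM with antioxidants in agitated culture, and at 13.97 to 24.4 CPM in static culture. gene2904 stood at 168, 164 and 155 CPM and at 30.2, 21.1 and 32.0 CPM in the agitated groups, and lower again, at 3.85 to 8.87 CPM, in the static ones. The static libraries of gene9222 overlapped the agitated antioxidant libraries, and those of gene2904 did not.

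gene2082 stood at 495, 367 and 431 CPM without and 70.0, 33.6 and 58.4 CPM with antioxidants in agitated culture. Its static libraries were at 19.3 to 49.7 CPM except replicate 3 without antioxidants, at 259.7 CPM. That library decides how its static levels compare: the static difference was within 0.7 on the log2(CPM+1) scale of group means, while the edgeR log2 fold change was -1.58 (SE 0.78). Its edgeR call in agitated culture was lost without agitated replicate 1 or 3 of the cultures without antioxidants or agitated antioxidant replicate 2 or 3.

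5 of the 8 genes with the highest CPM fell in this set. gene11539 stood at 3854, 3075 and 3311 CPM without and 1999, 1886 and 1289 CPM with antioxidants in agitated culture, and at 928 to 1423 CPM in static culture. gene6114 stood at 3224, 2987 and 2699 CPM and at 1654, 1112 and 1499.6 CPM in the agitated groups and at 351 to 1111 CPM in the static ones. Both passed the limit of 1 closely, and their edgeR log2 fold changes in agitated culture were -0.91 (SE 0.23) and -1.01 (SE 0.28). The call of gene11539 was lost without agitated replicate 1 of the group lacking antioxidants, and that of gene6114 without any 1 of that group's 3 libraries or without agitated antioxidant replicate 2 or 3.

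gene131 and gene7997 had larger differences. gene131 stood at 2649, 2032 and 2212 CPM without and 642, 601 and 1093 CPM with antioxidants, and at 419.7 to 873 CPM in static culture. gene7997 was the most even, with 2073, 1849 and 1981 CPM without, 585, 619 and 591 CPM with antioxidants and 416 to 726 CPM in static culture (edgeR log2 fold change -1.67, SE 0.15, in agitated and -0.31, SE 0.14, in static culture). gene9446, at 1076 ± 127 CPM (SD, n = 3) without and 519 ± 154 CPM with antioxidants in agitated culture, was at 217 ± 4.66 and 158 ± 26.7 CPM in static culture, below both agitated groups. CPM is not divided by gene length, so these values do not rank the genes by transcript number.

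The 18 genes with a static level near that of agitated antioxidant cultures were fewer and lower in level, with medians of 53.5 and 15.5 CPM in the agitated groups and 22.8 and 17.7 CPM in the static groups. gene7681 stood at 36.3 to 38.4 CPM without and 7.15 to 10.8 CPM with them in agitated culture, and at 12.4 to 17.5 CPM and 7.35 to 12.3 CPM in static culture. gene7782 stood at 51.4 to 59.5 CPM and 13.9 to 15.2 CPM in the agitated groups and ranged from 9.03 to 27.7 CPM in the static ones. The static and agitated antioxidant libraries of both genes overlapped.

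The spread between replicates within a group was not used by the rule, apart from the overlap of agitated libraries, and it differed between the classes. In both static groups many genes with high static levels, such as gene5500, gene7563 and gene10670, were highest in replicate 1 and lowest in replicate 3. For the 86 genes the median deviation from the group mean of log2(CPM+1) was 0.15, -0.01 and -0.14 in replicates 1, 2 and 3 without antioxidants and 0.14, 0.01 and -0.10 with them. Over all tested genes the same medians were 0.03, 0.02 and -0.04 without and 0.00, 0.05 and -0.06 with antioxidants. Replicate 1 was highest and replicate 3 lowest in both static groups for 25 of the 86 genes (29.1%), made up of 14 of the 28 with static culture near agitated culture (50.0%) and 11 of the 58 with static culture above it (18.97%), and for 799 of the tested genes (7.59%). The 58 alone had medians of 0.15, -0.03 and -0.12 without antioxidants and 0.05, 0.01 and -0.04 with them, the latter close to those of all tested genes. The 65 genes with low static levels had this order in 3 cases (4.62%) and the opposite order in both groups in 11 (16.9%), against 3.95% of tested genes. Genes are not independent replicates, and these shares rest on 6 libraries. The labels do not say what a replicate number stands for, and what sets the static libraries apart was not tested.

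By the rule, the 179 genes were lower in every agitated antioxidant replicate than in any agitated library without antioxidants. Their median difference from the mean of agitated cultures without antioxidants was -1.28, -1.39 and -1.31 in replicates 1, 2 and 3. Replicate 3, the library that stood apart, was the highest of the 3 for 95 genes (53.1%) and the lowest for 64 (35.8%), while over all tested genes it was the highest for 67.7% and the lowest for 22.2%. The rule, which required all 3 libraries to be low, selects against a high replicate 3, so nothing is read from this contrast. Without it, the mean of replicates 1 and 2 was lower by at least 1 for 148 of the 179. Applying the rule without it gave 196 genes, of which 147 were among the 179, that is 82.1% of the 179. As 148 kept the difference of at least 1 and 147 stayed in the set, not every loss came through the size of the difference. In all 32 genes that leaving out replicate 3 removed, it was the lowest agitated antioxidant library, so their place in the set rests on that library. gene11764, at 5.72, 7.35 and 1.62 CPM against 8.71 to 10.8 CPM without antioxidants, shows the form.

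Members of the set lay next to each other in number more often than other genes lay next to them. Of the 179 genes, 20 (11.2%) formed 10 pairs of consecutive numbers, while 334 of the 12134 other genes (2.75%) had a member at an adjacent number. Within 3 numbers of another member lay 34 of the 179 (18.99%) and 963 of the other genes (7.94%). Whether running numbers follow the order of genes on the genome is not stated. The antioxidant differences in agitated culture correlated between consecutive numbers with Pearson's r = 0.18 over 9779 pairs of tested genes, with 0.06 at a distance of 2 numbers, 0.02 at 10 and 0.00 at 100. These are descriptions across genes of the same libraries, and reads shared between overlapping or similar neighbours could not be told apart from separate transcripts. No run was longer than 2. The count of 20 was 2 of 59 genes with a limit of 1.5 in place of 1, and 12 of 129 with a pseudocount of 5. It was 32 of 205 or 31 of 196 without agitated antioxidant replicate 2 or 3. These sets differ in size, which by itself changes such a count.

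In several pairs both genes shared a static level. gene7562 and gene7563 were both above agitated culture in static culture, where gene7562 stood at 312 to 681 CPM against 113 to 156 CPM in agitated culture without and 13.4 to 33.8 CPM with antioxidants. gene2471 and gene2472 were also both higher in static culture, with gene2471 at 34.6 ± 9.20 CPM (SD, n = 3) without and 12.7 ± 3.92 CPM with antioxidants in agitated culture and at 70.1 ± 18.4 and 86.5 ± 36.0 CPM in static culture. gene9221 and gene9222 both fell in the class with static culture below agitated antioxidant cultures, but for gene9221 this was a near tie. Its log2(CPM+1) means were 5.53 and 5.14 in static cultures without and with antioxidants, against 5.34 in agitated antioxidant cultures. gene9221 stood at 98.4 ± 2.33 and 39.7 ± 5.05 CPM in the agitated groups and 46.3 ± 11.597 and 34.3 ± 3.93 CPM in the static ones. In 4 of the 10 pairs both genes fell in the same class of static level. In others they did not: gene7781 stood higher and gene7782 lower in static than in agitated culture without antioxidants, with mean differences of 0.60 and -1.72.

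The remaining pairs were spread over the range of levels. gene4555 and gene4556 stood at 15.3 and 34.3 CPM on average in agitated cultures without antioxidants and at 5.75 and 14.3 CPM with them, and static culture was near the latter for both. gene3186 and gene3187 had differences of -1.08 and -1.01, close to the limit. The edgeR call of gene3187 was lost without agitated replicate 3 of the group lacking antioxidants, and that of gene2471 without its replicate 2 or without agitated antioxidant replicate 3. gene9324 and gene9325 stood at 33.8 and 71.0 CPM without and 9.81 and 28.3 CPM with antioxidants, and gene11494, next to gene11495, at 116 ± 20.03 and 48.3 ± 9.33 CPM. gene8931, the pair member with the lowest level, stood at 4.48 ± 0.325 and 1.70 ± 0.293 CPM in the agitated groups, beside gene8932 at 31.4 ± 5.20 and 11.61 ± 1.14 CPM. gene7670, next to gene7669, stood at 151 ± 9.36 and 68.9 ± 6.85 CPM. The 2 members of a pair could differ several times in level and in size of difference.

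Linking members at most 4 numbers apart, a choice made after their values were seen, gave 4 groups of at least 3 members with 13 genes in all. From gene7556 to gene7563, 4 of 8 genes belonged to the set, with differences of -1.62, -2.56, -2.38 and -2.82 in agitated culture, and the 4 genes between them had differences from -0.35 to -0.10. All 4 members had static levels near or above agitated culture without antioxidants, and gene7556 stood at 49.7 ± 4.24 CPM (SD, n = 3) without and 15.4 ± 0.926 CPM with antioxidants in agitated culture and at 42.1 ± 13.9 and 39.3 ± 6.20 CPM in static culture. From gene7669 to gene7685 lay 2 such groups, of 3 members each. gene7669, gene7670 and gene7673 had differences of -2.12, -1.12 and -1.87, and gene7679, gene7681 and gene7685 of -1.49, -1.99 and -1.39. Between the last 3 lay gene7680, which missed the limit at -0.96 and stood at 130.1 CPM on average without and 66.4 CPM with antioxidants, and also gene7682, gene7683 and gene7684, at -0.12, 0.13 and 0.13. In the fourth group gene4553, at 48.9 and 14.4 CPM, joined gene4555 and gene4556, but its static level, at 54.9 and 47.9 CPM, was that of agitated culture without antioxidants, unlike theirs.

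**Figure D5:**
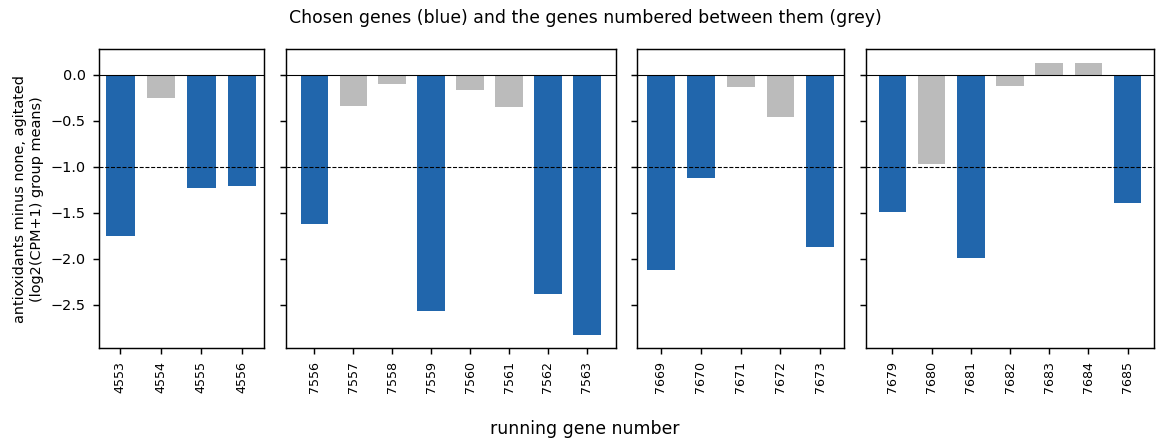
Antioxidant difference in agitated culture (y axis, difference of group means of log2(CPM+1), n = 3 libraries per group) by running gene number (x axis) for the 4 groups of members at most 4 numbers apart. Blue bars are genes of the set and grey bars the genes numbered between them; the dashed line marks -1. From 7556 to 7563 the grey genes stay between -0.35 and -0.10 while the blue ones reach -2.82.

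The opposite rule, with a rise of at least 1 in place of the fall, gave 86 genes, fewer than 179. The gap depends on scaling: with CPM per TMM-scaled total the 2 rules gave 96 and 162 genes. Those 86 genes held 0.560% ± 0.0340 (SD, n = 3) of reads in the agitated group without antioxidants and 1.48% ± 0.0880 with them. The 179 and the 86 genes together thus show opposite levels in agitated culture by construction. Their static cultures lay between the agitated groups in both cases, at 0.855% ± 0.0252 and 0.856% ± 0.0433 for the 86 genes. The clause on static culture was applied to both sets and shapes this place. Of the 9 genes that were also lower with antioxidants in static culture by at least 0.7, 8 remained after the clause on static culture. Examples chosen after their values were seen include gene5271, with mean levels of 1155 and 307 CPM in agitated culture and 1513 and 891 CPM in static culture. The 10 genes dropped for far higher static levels included gene5057, at 61.3 and 24.4 CPM on average in agitated and 5163 and 3805 CPM in static cultures without and with antioxidants, and gene196, at 45.3, 13.3, 3336 and 2620.2 CPM in the same order. These genes had antioxidant differences in agitated culture of -1.37 and -1.67, within the range of the 179, and were set aside only for the size of their static response.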

How the data were processed

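Each library has a deposited table of raw counts, whole reads per gene, that the authors left unnormalised. FastQC, HTSeq, Bowtie and Bowtie2 were used, per the submitters' processing notes, which state neither roles nor versions. The build, annotation and strand setting were not given in the sources used here. Per the labels' protocols, DNase-treated total RNA was sequenced from stranded libraries. Summary lines, with 4.61 to 5.32% of reads outside genes and 0.213 to 0.271% ambiguous, stayed out of totals. Groups and replicate numbers came from titles; 1 agitated library lacks the agitation tag. Only the 12 G. subvermispora libraries were compared; no column of per-sample values was left unmapped.

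CPM was computed from gene-read totals and used with a pseudocount of 1. edgeR 4.0.16 (limma 3.58.1, R 4.3.3) was fitted on the 10529 of 12313 genes kept by filterByExpr, with TMM scaling, 4 group means and robust quasi-likelihood tests, adjusted by Benjamini-Hochberg. The biological coefficient of variation was 14.3%. SEs derive from the fold change and F statistic. DESeq2 1.42.0 was an alternative. The fit was also run on simulated counts. These held no library that stood apart and no shared replicate effect, so that run does not bear on either. Members, classes and gene lists were chosen with earlier results of these data known. Named genes were the 12 largest differences at 10 CPM or more, the 8 highest levels, 2 per class, members of the longest runs, and genes next to a limit. Gene lists by product could not be filled. Counting error adds to the replicate spread of the 23 genes with fewer than 50 reads in some library, among them 3 with 3 or fewer. No 2 replicates agreed within sampling noise (chi-square per degree of freedom 18.3 to 145.0). Deviations from group means correlated at 0.326, 0.164 and 0.411 between same-number static libraries and at -0.331 to 0.063 between others. By a limit of 0.1 for every pair, only the static libraries passed, and the agitated ones did not (-0.057, 0.093 and -0.001). Between agitated and static antioxidant libraries, same-number values were 0.154, -0.325 and -0.113, and different-number values reached 0.388. The value of 0.388 between unlike numbers thus exceeded the static values of 0.326 and 0.164, but not that of 0.411. Centring within groups of 3 also lowers the other values where same-number values are positive. The static pairing is therefore uncertain, and it comes from the counts, not the labels.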

Additional observations from a re-analysis of the deposited data

How the results depend on the processing

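The number of genes chosen was 179 and stayed between 164 and 205 without any 1 library; it was 59 with a limit of 1.5. Of the 179, 162 remained with CPM per TMM-scaled total and 126 of 129 genes found with a pseudocount of 5 were among them. Without 1 library, edgeR called 156 to 168 of the 179 lower in agitated culture, 93 to 131 for the difference of effects, 105 to 124 and 108 to 129 between static and agitated culture without and with antioxidants, and 0 to 9 in static culture. The static count of 1 was 9 with DESeq2 and 4 with a replicate block in the static libraries alone, added after seeing the data. With the replicate block in all libraries the counts were 169, 1, 123, 116 and 121, against 168, 1, 120, 114 and 120 without it, and it moved no other count of the 179 by over 1.5 times.

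Medians on the log2 scale without 1 library ranged from -1.32 to -1.23 (antioxidants, agitated), -0.11 to -0.03 (antioxidants, static), -0.48 to -0.38 (static against agitated, no antioxidants) and 0.66 to 0.83 (with them). With a pseudocount of 5 the antioxidant median in agitated culture and the 2 medians between static and agitated culture were -1.14, -0.33 and 0.58, by construction smaller. With CPM per TMM-scaled total the last 2 were -0.59 and 0.58, the agitated antioxidant replicate 3 median was -1.45, the shares of reads were 3.88, 1.60, 2.28 and 2.20% in the order agitated without, agitated with, static without and static with antioxidants, and the middle static class held 16 genes against 28. Without 1 library the shares ranged from 3.56 to 3.74%, 1.42 to 1.48%, 2.40 to 2.48% and 2.28 to 2.40%, and the 5 static classes from 56 to 65, 22 to 31, 24 to 30, 17 to 23 and 45 to 48 genes.

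Over all tested genes, antioxidants changed 2343 genes in agitated culture and 1436 to 2565 without 1 library (1438 and 1436 without agitated replicates 1 and 3 lacking antioxidants); in static culture 48, 10 to 244 without 1 library, 248 with DESeq2, 28 with the replicate block and 90 with it in static libraries alone; and the effects differed for 953, 459 to 1496 without 1 library (1496 without agitated antioxidant replicate 3) and 1516 with DESeq2. With scaling by library totals the median tested gene stood at 0.18 and 0.20 between static and agitated culture, without and with antioxidants. With TMM it stood at -0.003 and -0.018. The split of higher to lower calls went from 1224 and 1119 to 724 and 1121 for antioxidants in agitated culture and from 451 and 502 to 422 and 259 for the difference of effects. Among the 179 it went from 25 and 89 to 33 and 82 and from 87 and 33 to 100 and 21 between culture states. The 37 named genes kept a log2 fold change below 0 in agitated culture in all 666 alternative values, of which 13 missed the threshold, for gene2082, gene2471, gene3187, gene6114 and gene11539, each without 1 agitated library.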
